A study of Mus musculus with 24 samples.

Results

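Tamoxifen and 17β-estradiol (E2) were compared directly in carotid arteries of C57BL/6 mice, from 6 libraries of tamoxifen-treated mice (C11, C12, C13, C32, C33 and C35) and 6 libraries of E2-treated mice (C6, C8, C9, C26, C27 and C29). These 12 libraries, taken by their titles, are part of the 24 in the series, and every gene in their count tables entered the comparison. The 6 vehicle-treated libraries, titled OVX for ovariectomized, are given beside them as the background without estrogen, and the 6 estetrol (E4) libraries entered the low-count filter, the scaling and the estimate of the spread. The treatment tag of the E4 libraries reads placebo, although their titles and sources name E4. All mice were 9 weeks old, and the design text of the series calls them wild type and gives 3 weeks of treatment with estradiol or tamoxifen. The study's methods describe ovariectomized mice, cholesterol pellets with vehicle, E2 or E4, a shorter treatment than the design text and uninjured arteries for sequencing, but they do not name tamoxifen as one of these groups, and the dose and route of tamoxifen, and whether the tamoxifen-treated mice were ovariectomized, are not given in the sources used here. E2 is a steroid and tamoxifen a nonsteroidal triphenylethylene, a selective estrogen receptor modulator, and their doses could not be matched. Libraries of a group came from separately numbered mice. The series addresses which sub-functions of the estrogen receptor and which cells of the arterial wall each compound acts through.

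Estrogen receptor alpha, encoded by Esr1, is a nuclear receptor that changes transcription when it is bound by ligand. Its N-terminal activation function does not depend on the ligand, whereas the C-terminal activation function is formed when a helix of the ligand-binding domain closes over E2 and recruits coactivators. Tamoxifen displaces this helix, so it acts as an antagonist where transcription needs the C-terminal function and as a partial agonist where the N-terminal function suffices. In arteries the receptor is present in endothelial cells, smooth muscle cells, fibroblasts and leukocytes of the wall.

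The carotid arteries held the markers of their wall. Acta2, smooth muscle actin, was at 1212 to 3236 CPM (counts scaled to library size with TMM factors) with tamoxifen and 1137 to 1512 CPM with E2, and Cdh5, the endothelial cadherin, was at 74.2 to 128 and 58.1 to 102 CPM. Myh11, smooth muscle myosin, was at 823 to 2599 and 642 to 859 CPM, and Pecam1 of endothelial cells and platelets at 219 to 517 and 253 to 362 CPM. Total counts of the 12 libraries ranged from 42110445 to 57686035. Certain libraries stood apart and bear on results given further on. Tamoxifen C35 had a mean of 3.66 log2 CPM over 26 sympathetic ganglion markers, against 7.70 to 8.22 in the other tamoxifen libraries, and the highest smooth muscle markers of its group (8.96 log2 CPM). Vehicle C5 was at 1.07 for the same ganglion list. E2 C9 had 4.24 log2 CPM over the T cell markers and 205 CPM of Rag1, a recombinase of developing lymphocytes, against at most 9.09 CPM in any tamoxifen library. In whole arteries, fewer cells of a type and less RNA per cell cannot be told apart.

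Of 25033 genes tested, 413 (1.65%) were regulated, which means an adjusted p under 0.05 and a more than 2-fold difference in edgeR's quasi-likelihood test. Among them 348 (1.39% of the genes tested) were lower with tamoxifen than with E2 and 65 (0.26%) were higher. Without the requirement on fold, 1612 genes (6.44%) had an adjusted p under 0.05, 1128 lower and 484 higher. The CPM values of the 6 tamoxifen libraries all lay below those of the 6 E2 libraries for 784 genes (3.13%) and all above them for 277 genes (1.11%). Both criteria held together for 245 lower and 36 higher genes. The count of 1612 became 1008 without E2 C8, 1028 without E2 C9 and 3335 without tamoxifen C35 and vehicle C5. The median log2 fold change of all genes was 0.003, and the TMM scaling itself places most genes near 0. Without tamoxifen C35, vehicle C5 and E2 C9, the libraries that stood apart, 393 genes were regulated, 66 higher and 327 lower, 313 of them among the 413. The mice of both groups carry numbers from a lower and a higher series, and with 3 against 3 libraries of 1 series in the fit, the lower series gave 465 regulated genes, 243 of them among the 413, and the higher series 94, with 81 among them. Log2 fold changes are those of tamoxifen over E2 unless another contrast is named, each with its standard error (SE). Exons of Tg, Gm49540, Mb, Gm37389, Greb1, Stc1, Cyp2f2, Akr1c14, Tbxas1, Bmp8b, Dbp, F13a1, Folr2, Prtn3, Dio2, Akr1cl, Il4ra, Fcna, Alox5ap, Ltc4s, Plod2, Gas6, Slc27a2, Csf1r, Col3a1, Itgam and Rag1 overlap those of another annotated gene, mostly on the other strand, and the strand setting of the counting is not given, so the values of these genes may include reads of their partners.

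Vehicle placed these genes unevenly. The vehicle mean lay between the means with tamoxifen and E2 for 237 of the 348 lower genes, at or below the tamoxifen mean for 102 and at or above the E2 mean for 9. For the 65 higher genes it lay between for 45, at or above the tamoxifen mean for 17 and at or below the E2 mean for 3. Since the same 6 vehicle libraries serve both compounds, these positions are given as values and were not tested.

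**Figure D1:**
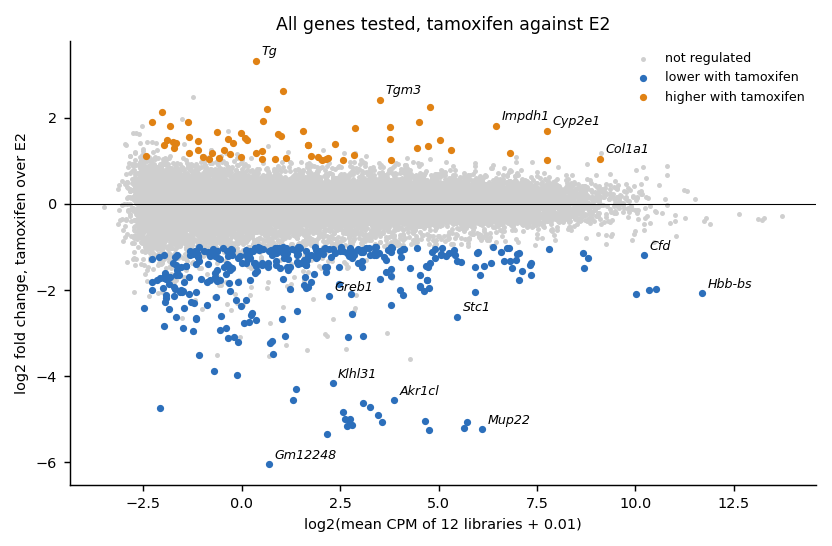
Each point is 1 of the 25033 genes tested, with the log2 of its mean CPM over the 12 libraries plus 0.01 on the x axis and the log2 fold change of tamoxifen over E2 on the y axis. Blue marks the 348 genes lower with tamoxifen and orange the 65 higher, and the labelled Mup22, Akr1cl and Gm12248 lie more than 4 log2 units below 0.

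Of the 10 lowest genes by the rule for named genes, 9 were major urinary proteins or a pseudogene of them, small lipocalins that bind pheromones and are secreted mainly by liver and exocrine glands. Of 22 members listed, 18 were tested, 17 were regulated and lower with tamoxifen, against 1.39% of all genes, and none was higher. Their median log2 fold change was -5.005, against 0.003 for all genes. The exception was Mup21 (log2 fold change -1.31, adjusted p = 0.181), whose mean was 0.273 CPM with E2 and 0.11 CPM with tamoxifen. Mup3 (log2 fold change -1.97) was lower by less than the other 16, which lay between -5.35 and -4.56. Without E2 C9 the family again had 17 regulated members, with a median of -4.93.

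Mup22 (chromosome 4, 60817589 to 60821463 in GRCm38) was at 1.21 to 6.58 CPM with tamoxifen (median 3.30), 71.0 to 212 CPM with E2 (median 126) and 1.33 to 4.70 CPM with vehicle (median 3.64). The tamoxifen and E2 ranges did not overlap and the tamoxifen range overlapped that of vehicle. The fitted difference was 37.4-fold (log2 fold change -5.23 ± 0.47 SE, adjusted p = 1.89e-07). Mup18 was at 0.873 to 5.06 CPM with tamoxifen (median 2.41), 52.8 to 153 CPM with E2 (median 92.6) and 1.16 to 3.85 CPM with vehicle (median 2.86), and Mup11 at 1.21 to 6.04 CPM with tamoxifen (median 2.48), 55.6 to 164 CPM with E2 (median 94.8) and 1.11 to 3.87 CPM with vehicle (median 2.75). Their log2 fold changes were -5.20 ± 0.46 and -5.05 ± 0.46 (SE). Next to these, Mup7, Mup1, Mup8, Mup2 and Mup10 were also among the 10 lowest, with log2 fold changes of -5.35, -5.16, -5.14, -5.06 and -5.04, as was Mup-ps22 (-5.25), annotated as a pseudogene on chromosome 11. Against vehicle, Mup22 was higher with E2 (log2 fold change 5.40, adjusted p = 5.47e-08), while the value with tamoxifen was 0.17 (adjusted p = 0.853).

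The family is a cluster of near-copies on chromosome 4, so that reads may be divided among members and the separate values are uncertain. Of the distinct 100-base stretches in the annotated transcripts, 100% of those of Mup22, 87.1% of those of Mup18 and 70.6% of those of Mup11 also occur in another gene. The members also resembled each other upstream. Promoter windows (250 bases before to 50 after the start, from RefSeq on GRCm38.p6) were found for 12 tested members, and the 66 pairs were 83.3% to 100% identical over their aligned bases, with a median of 95.9%. Those of Mup18 (chr4:61674045-61674344, minus strand) and Mup11 (chr4:60662346-60662645, minus strand) are shown as 2 of the 3 members with the most reads. Neither holds the estrogen response hexamer searched for further on, so no letters are in capitals.
Mup18: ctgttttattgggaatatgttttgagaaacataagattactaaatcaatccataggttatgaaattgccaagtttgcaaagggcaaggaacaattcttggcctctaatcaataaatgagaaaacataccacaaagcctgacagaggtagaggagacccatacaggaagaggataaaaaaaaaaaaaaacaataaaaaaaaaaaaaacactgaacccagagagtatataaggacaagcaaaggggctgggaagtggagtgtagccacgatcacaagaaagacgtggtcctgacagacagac
Mup11: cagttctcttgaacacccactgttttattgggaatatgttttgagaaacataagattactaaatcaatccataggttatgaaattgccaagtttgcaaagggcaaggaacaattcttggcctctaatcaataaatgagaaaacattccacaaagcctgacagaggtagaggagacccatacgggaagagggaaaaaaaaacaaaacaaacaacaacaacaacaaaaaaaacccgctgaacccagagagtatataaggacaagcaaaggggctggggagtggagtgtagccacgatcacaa

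The remaining and lowest of the 10 was Gm12248, a predicted gene (chromosome 11, 58063552 to 58093134) that was at 0 to 0.149 CPM with tamoxifen (median 0.0339) and 2.77 to 3.81 CPM with E2 (median 3.08). Its tamoxifen libraries held at most 7 counts and its vehicle libraries at most 2, whereas E2 libraries held up to 175 (log2 fold change -6.04 ± 0.37 SE, adjusted p = 4.59e-10). Without tamoxifen C32 its log2 fold change was -6.84. The genes in the rest of this paragraph were chosen after their values were seen. Akr1cl, an aldo-keto reductase family member, was at 0.905 to 1.43 CPM with tamoxifen (median 1.23), 11.9 to 53.6 CPM with E2 (median 22.3) and 0.68 to 1.12 CPM with vehicle (median 0.938). The tamoxifen and E2 values were far apart (log2 fold change -4.55 ± 0.33 SE, adjusted p = 1.29e-08). Klhl31, a kelch-like protein, was at 0.0344 to 1.30 CPM with tamoxifen (median 0.513), 6.61 to 12.4 CPM with E2 (median 8.57) and 0.11 to 1.39 CPM with vehicle (median 0.395), a log2 fold change of -4.16 ± 0.52 (SE, adjusted p = 1.46e-05). Ano4 of the anoctamin family (log2 fold change -3.06) and the GTPase-activating protein gene Arhgap40 (-3.20) were also lower, with no overlap between the groups in any of these genes.

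Genes known to respond to estrogen were not all lower. Of 33 tested members of the estrogen response list, 2 were regulated, Stc1 and Greb1, both lower with tamoxifen, against 1.39% of all genes. Another 5 passed the adjusted p within a 2-fold difference, of which Xbp1 (-0.41) and C3 (-0.70) were lower and Stc2 (0.68), Sgk1 (0.65) and Adcy9 (0.49) higher. Among all genes, 6.44% had an adjusted p under 0.05 in either direction, whatever the fold. The median log2 fold change of the list was -0.03, with 19 members below 0 and 14 above. It was -0.10 without tamoxifen C13 and -0.01 without E2 C6. Stc1, a secreted glycoprotein that acts on calcium and phosphate handling, was at 9.28 to 16.5 CPM with tamoxifen (median 12.4), 48.5 to 104 CPM with E2 (median 73.7) and 3.04 to 6.73 CPM with vehicle (median 5.49). The 3 groups did not overlap, with tamoxifen above vehicle and below E2 (log2 fold change -2.62 ± 0.22 SE, adjusted p = 9.30e-08). Against vehicle the log2 fold change of Stc1 was 3.88 ± 0.24 (SE) with E2 and 1.26 ± 0.22 (SE) with tamoxifen.

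Greb1, a coactivator of the estrogen receptor and a target of it, was at 0.951 to 2.48 CPM with tamoxifen (median 1.66), 6.12 to 9.96 CPM with E2 (median 7.13) and 0.22 to 1.98 CPM with vehicle (median 1.58). All tamoxifen libraries were below all E2 libraries (log2 fold change -2.15 ± 0.30 SE, adjusted p = 5.28e-05) and overlapped the vehicle range. Pgr, the progesterone receptor, differed from this pattern, at 4.66 to 9.88 CPM with tamoxifen (median 6.404), 6.78 to 11.3 CPM with E2 (median 8.33) and 2.90 to 5.19 CPM with vehicle (median 3.86). Tamoxifen and E2 overlapped and the difference missed the threshold (log2 fold change -0.40 ± 0.17 SE, adjusted p = 0.162). Against vehicle, Pgr was at a log2 fold change of 1.12 (adjusted p = 1.74e-04) with E2 and 0.72 (adjusted p = 0.0327) with tamoxifen. Oxtr, the oxytocin receptor, and Aldh1a2, which makes retinoic acid, were chosen after their values were seen. Oxtr was at 4.95 to 12.2 CPM with tamoxifen (median 6.59), 14.1 to 22.9 CPM with E2 (median 17.4) and 2.96 to 5.87 CPM with vehicle (median 3.52), a log2 fold change of -1.30 ± 0.21 (SE, adjusted p = 4.29e-04), and Aldh1a2 at 2.53 to 6.44 CPM with tamoxifen (median 4.63), 15.8 to 36.2 CPM with E2 (median 21.2) and 2.25 to 3.59 CPM with vehicle (median 2.77), a log2 fold change of -2.35 ± 0.24 (SE, adjusted p = 6.65e-07). For both, the tamoxifen range lay below that of E2 and overlapped that of vehicle. Greb1 and Stc1 overlap antisense genes (Gm48140 and Gm41192).

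For Esr1 and Gper1 the difference between tamoxifen and E2 did not pass the test. Esr1 was at 26.3 to 37.1 CPM with tamoxifen (median 31.7), 29.5 to 41.8 CPM with E2 (median 36.7) and 34.3 to 62.8 CPM with vehicle (median 43.6), a log2 fold change of -0.18 ± 0.13 (SE, adjusted p = 0.459). Against vehicle its log2 fold change was -0.55 (adjusted p = 0.0286) with tamoxifen and -0.37 (adjusted p = 0.107) with E2. Gper1, a membrane receptor reported to bind estrogen, was at 1.04 to 4.34 CPM with tamoxifen (median 2.84) and 0.733 to 3.72 CPM with E2 (median 2.04, adjusted p = 0.535), and Esr2 had too few counts to be tested. None of the 17 tested members of the list of receptors and coregulators was regulated, and Ncor1, a corepressor, was the only one with an adjusted p under 0.05 (log2 fold change 0.19, adjusted p = 0.0462).

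**Figure D2:**
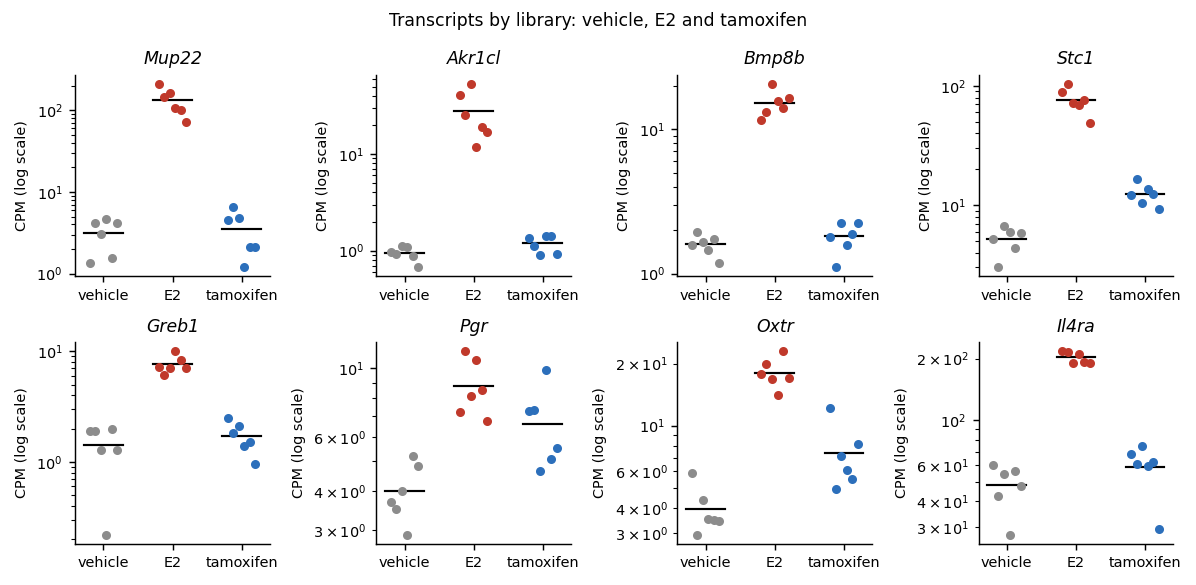
CPM on a log scale for 8 genes in the 6 vehicle (grey), 6 E2 (red) and 6 tamoxifen (blue) libraries, with a bar at the mean. Tamoxifen lies below E2 without overlap in all panels but Pgr, where tamoxifen spans 4.66 to 9.88 CPM and E2 6.78 to 11.3 CPM.

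The full palindromic estrogen response element, searched as GGTCA and TGACC with any 3 bases between them, is in the promoter window of 0.0144% of the tested genes with a window, and of 0 of the 219 lower and 0 of the 35 higher regulated genes with a window. The hexamer AGGTCA of a single arm, searched on both strands, is in 15.7% of the windows of tested genes (18.1% of the windows of all genes), in 16.4% of those of lower genes and in 25.7% of those of higher genes. The windows of Greb1 (chr12:16800837-16801136, minus strand), the receptor target that was lower, and of Tgm3 (chr2:130012090-130012389, plus strand), the higher gene described below, are shown with the hexamer in capitals, which shares letters with an arm of the longer element. These matches are descriptions of the letters and not evidence of binding.
Greb1: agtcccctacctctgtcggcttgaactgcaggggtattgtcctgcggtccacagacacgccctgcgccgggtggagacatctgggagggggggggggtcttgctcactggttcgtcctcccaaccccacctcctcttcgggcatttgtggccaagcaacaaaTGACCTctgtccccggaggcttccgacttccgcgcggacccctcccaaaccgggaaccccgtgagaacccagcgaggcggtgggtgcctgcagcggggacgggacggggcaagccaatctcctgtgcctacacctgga
Tgm3: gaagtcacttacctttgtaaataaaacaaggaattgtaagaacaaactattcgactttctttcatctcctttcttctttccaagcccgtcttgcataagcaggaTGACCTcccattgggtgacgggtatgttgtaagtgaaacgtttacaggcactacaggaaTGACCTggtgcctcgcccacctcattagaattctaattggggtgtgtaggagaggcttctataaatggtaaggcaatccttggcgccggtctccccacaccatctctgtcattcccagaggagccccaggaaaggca

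Macrophage genes were lower with tamoxifen as a group. Of 15 macrophage markers tested, 6 were regulated, all lower, against 1.39% of all genes, and 13 had an adjusted p under 0.05, all lower, against 6.44% of all genes in either direction. The tamoxifen range lay below that of E2 for 13 of them, against 3.13% of all genes. The median log2 fold change was -0.98. The mean over the list was 4.90 to 5.29 log2 CPM with tamoxifen, 5.69 to 6.14 with E2 and 4.96 to 5.69 with vehicle. Lyve1, a hyaluronan receptor of perivascular macrophages and lymphatic endothelium, was at 28.1 to 37.9 CPM with tamoxifen (median 32.9), 80.1 to 98.5 CPM with E2 (median 88.5) and 31.3 to 53.6 CPM with vehicle (median 36.1), a log2 fold change of -1.46 ± 0.16 (SE, adjusted p = 1.97e-06). All tamoxifen libraries were below all E2 libraries. F13a1, a transglutaminase subunit made by macrophages, was at 79.5 to 100.5 CPM with tamoxifen (median 94.5), 171 to 297 CPM with E2 (median 238) and 101 to 216 CPM with vehicle (median 118), a log2 fold change of -1.36 ± 0.17 (SE, adjusted p = 2.00e-05). Folr2, a folate receptor (log2 fold change -1.26), Mrc1, the mannose receptor (-1.01), and the complement subunits C1qa (-1.02) and C1qb (-1.12) completed the regulated members. Of these, without E2 C6, C8 or C9 or tamoxifen C13 (each left out singly), Mrc1 was no longer regulated (log2 fold change -0.99 to -0.92, adjusted p up to 0.00153), and C1qa likewise lost the call without single libraries, as given with the complement genes. With the mean of the white adipocyte list as a covariate, Mrc1 (-0.79), C1qa (-0.85) and C1qb (-0.94) were within a 2-fold difference. Without E2 C9 the list had 6 regulated members, with C1qc (-1.01) in place of Mrc1, and a median of -0.99. In the higher number series alone (3 against 3 libraries), F13a1, Folr2, Mrc1, C1qa and C1qb missed the adjusted p (0.0584 to 0.213). Lyve1 stayed regulated there. The list mean in that series was 4.975 to 5.286 log2 CPM with tamoxifen and 5.688 to 5.935 with E2.

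Csf1r and Cd68, of the same list, were chosen after their values were seen. Csf1r, the receptor for macrophage colony-stimulating factor, was at 65.9 to 82.0 CPM with tamoxifen (median 73.0) and 112 to 136 CPM with E2 (median 121), Cd68 at 8.11 to 10.6 CPM with tamoxifen (median 9.48) and 14.9 to 20.2 CPM with E2 (median 19.1), and neither reached a 2-fold difference (log2 fold changes -0.74 and -0.96). The other genes of this paragraph belong to no list and were chosen after their values were seen. Il4ra, the interleukin-4 receptor, was at 29.2 to 74.7 CPM with tamoxifen (median 61.7), 189.9 to 216 CPM with E2 (median 201) and 27.6 to 60.2 CPM with vehicle (median 51.1), a log2 fold change of -1.77 ± 0.18 (SE, adjusted p = 5.87e-07). Its E2 libraries were above all vehicle and all tamoxifen libraries. Siglec1, a sialic acid receptor (log2 fold change -1.45), Mgl2, a lectin (-1.45), Retnla (-1.43), Fcna, a ficolin (-2.12), Vsig4, a complement receptor (-2.75), Itgam (-1.49) and Nlrp3, the inflammasome sensor (-1.96), were all regulated and lower without overlap.

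Many complement genes were lower as well. Of 18 tested, 7 were regulated, all lower, against 1.39% of all genes, and 12 had an adjusted p under 0.05, all lower, against 6.44% of all genes in either direction. The median log2 fold change was -0.74. Cfd, adipsin of the alternative pathway, was at 594 to 1050.0 CPM with tamoxifen (median 691), 1319 to 1957 CPM with E2 (median 1693) and 429 to 1156 CPM with vehicle (median 666), a log2 fold change of -1.19 ± 0.19 (SE, adjusted p = 3.89e-04). The E2 range lay above both other ranges. Cfp, properdin (log2 fold change -1.14), and the anaphylatoxin receptors C3ar1 (-1.10) and C5ar1 (-1.02) were also lower, as was C6 of the membrane attack complex (-1.28), and C1qa and C1qb are in this list too. C1qa was near the 2-fold limit (log2 fold change -1.02 ± 0.15 SE, adjusted p = 1.17e-04), and without E2 C6 or C8 or tamoxifen C11 or C32 (each left out singly), C1qa was no longer regulated (log2 fold change -0.998 to -0.96, adjusted p up to 5.61e-04). Without E2 C6 or C8 or tamoxifen C32 (each left out singly), C5ar1 was no longer regulated (log2 fold change as close to 0 as -0.98, adjusted p up to 0.00469). Without E2 C9 the list had 8 regulated members and a median of -0.77. With the mean of the white adipocyte list as a covariate, 5 of the 7 were no longer past a 2-fold difference, Cfd (-0.88), Cfp (-0.93), C1qb (-0.94), C1qa (-0.85) and C5ar1 (-0.83), each with an adjusted p under 0.05. Cfd is also in the fat cell list described below, so with that covariate it was adjusted partly for itself.

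Among chemokines, cytokines and adhesion molecules, 2 of 27 tested were regulated, both lower, against 1.39% of all genes. The median was -0.28, and -0.18 without E2 C8. Ccl8, a monocyte chemoattractant, was at 1.53 to 4.01 CPM with tamoxifen (median 2.73), 7.005 to 19.7 CPM with E2 (median 10.2) and 1.56 to 4.33 CPM with vehicle (median 1.87), a log2 fold change of -2.09 ± 0.35 (SE, adjusted p = 5.73e-04). Ccr2, the receptor that brings monocytes to tissue, was at 19.8 to 23.9 CPM with tamoxifen (median 22.9) and 32.8 to 64.8 CPM with E2 (median 45.2), a log2 fold change of -1.03 ± 0.15 (SE, adjusted p = 1.05e-04), and without E2 C8 or C9 (each left out singly), Ccr2 was no longer regulated (log2 fold change -0.99 to -0.91, adjusted p up to 4.18e-04). None of 12 MHC class II genes was regulated, although all 12 had a log2 fold change below 0 (median -0.44), and none of 25 interferon response genes was.

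Of 35 vasoactive signalling genes, 2 were regulated, Alox5 and Tbxas1, both lower, against 1.39% of all genes, and the median of the list was 0.13. Alox5, 5-lipoxygenase of leukotriene synthesis, was at 4.38 to 6.24 CPM with tamoxifen (median 4.804), 9.73 to 11.3 CPM with E2 (median 10.4) and 4.39 to 7.89 CPM with vehicle (median 5.47), a log2 fold change of -1.08 ± 0.16 (SE, adjusted p = 1.16e-04). Tbxas1, thromboxane synthase, was at 5.78 to 8.91 CPM with tamoxifen (median 7.20), 15.1 to 22.2 CPM with E2 (median 15.8) and 6.70 to 10.1 CPM with vehicle (median 7.99), a log2 fold change of -1.23 ± 0.13 (SE, adjusted p = 1.12e-06). In both genes tamoxifen and E2 did not overlap. Ltc4s, leukotriene C4 synthase (log2 fold change -1.47), Alox5ap, the 5-lipoxygenase-activating protein (-1.002), and Ptafr, the receptor for platelet-activating factor, were chosen after their values were seen. Without E2 C6, C8 or C9 or tamoxifen C11, C12, C13 or C32 (each left out singly), Alox5ap was no longer regulated (log2 fold change as close to 0 as -0.95, adjusted p up to 8.24e-04). Ptafr was at 10.1 to 12.97 CPM with tamoxifen (median 10.8), 29.4 to 40.4 CPM with E2 (median 34.6) and 10.8 to 20.2 CPM with vehicle (median 12.2), a log2 fold change of -1.64 ± 0.17 (SE, adjusted p = 1.43e-06).

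**Figure D3:**
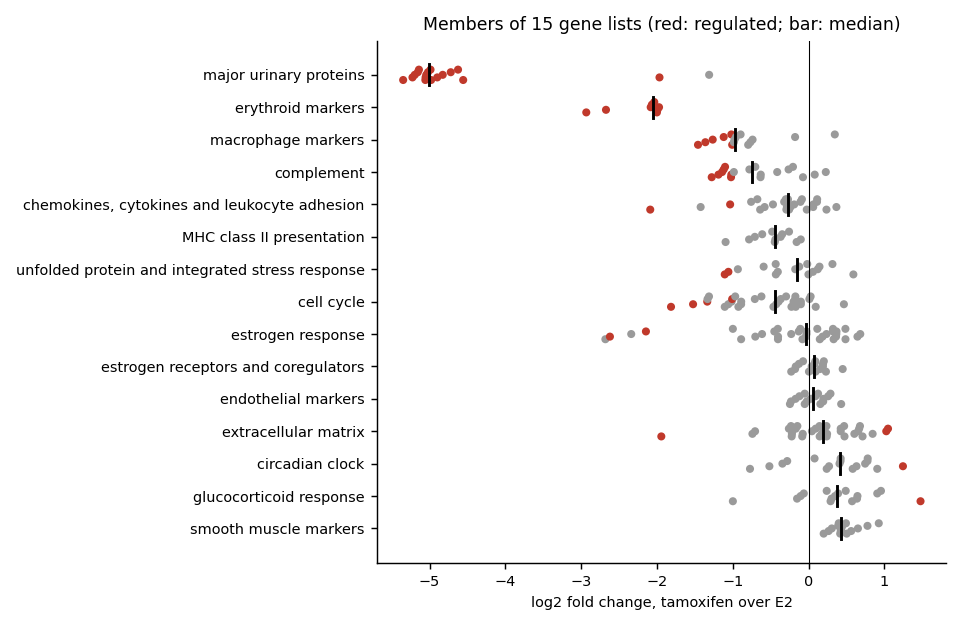
Each point is a tested member of 1 of 15 gene lists, at its log2 fold change of tamoxifen over E2 on the x axis, red where regulated and grey otherwise, with a bar at the median. The bars of the urinary protein, erythroid, macrophage and complement lists lie at -5.005, -2.05, -0.98 and -0.74, and that of the receptor and coregulator list at 0.08.

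Of 16 tested genes of the unfolded protein and integrated stress response, 2 were regulated and lower, Sdf2l1 and Creld2, against 1.39% of all genes. An adjusted p under 0.05 was found for 7, all lower, against 6.44% of all genes in either direction, and 5 members were above 0. The list's median was -0.15, with -0.26 without E2 C26 and -0.07 without tamoxifen C11. Hspa5, the chaperone BiP, was chosen after its values were seen and was at 397 to 429 CPM with tamoxifen (median 419.8), 636 to 939 CPM with E2 (median 805) and 416 to 474 CPM with vehicle (median 462). Its tamoxifen libraries fell in a narrow range below all E2 libraries (log2 fold change -0.93 ± 0.09 SE, adjusted p = 4.50e-07). Creld2 was at 10.4 to 12.97 CPM with tamoxifen (median 11.1), 17.6 to 29.8 CPM with E2 (median 23.2) and 9.31 to 13.5 CPM with vehicle (median 12.6), a log2 fold change of -1.06 ± 0.11 (SE, adjusted p = 1.43e-06), and Sdf2l1, a subunit of chaperone complexes, at 5.36 to 11.6 CPM with tamoxifen (median 8.51), 16.3 to 22.4 CPM with E2 (median 18.2) and 7.76 to 9.34 CPM with vehicle (median 8.70), a log2 fold change of -1.11 ± 0.14 (SE, adjusted p = 2.40e-05). Without E2 C8, Creld2 was no longer regulated (log2 fold change -0.98, adjusted p = 4.26e-06), and without tamoxifen C35, Sdf2l1 was no longer regulated (log2 fold change -0.99, adjusted p = 2.46e-05). Pdia4, Hsp90b1, Dnajb9 and Xbp1 had log2 fold changes of -0.59, -0.43, -0.43 and -0.41. The other 9 members did not pass the test, among them the integrated stress response factors Atf4 (-0.00), Ddit3 (-0.02) and Trib3 (-0.18).

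The stress response element of the endoplasmic reticulum, searched as CCAAT and CCACG with any 9 bases between them on either strand, is in the promoter window of 0.159% of the tested genes with a window. It is in 3 of the 16 windows of the list, those of Hspa5, Creld2 and Hsp90b1, all of which are among the 7 lower members. The windows of these 3 genes (Hspa5 chr2:34771840-34772139, plus strand, Creld2 chr15:88819396-88819695, plus strand and Hsp90b1 chr10:86705395-86705694, minus strand) are shown with the element in capitals. The other 13 windows of the list, which include those of the lower members Sdf2l1, Pdia4, Dnajb9 and Xbp1, do not hold these letters.
Hspa5: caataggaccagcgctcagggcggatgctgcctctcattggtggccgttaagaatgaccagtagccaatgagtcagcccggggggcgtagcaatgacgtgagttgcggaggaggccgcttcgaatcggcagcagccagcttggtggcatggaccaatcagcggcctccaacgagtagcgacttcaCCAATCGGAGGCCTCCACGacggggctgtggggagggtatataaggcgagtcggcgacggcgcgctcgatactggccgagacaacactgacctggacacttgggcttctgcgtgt
Creld2: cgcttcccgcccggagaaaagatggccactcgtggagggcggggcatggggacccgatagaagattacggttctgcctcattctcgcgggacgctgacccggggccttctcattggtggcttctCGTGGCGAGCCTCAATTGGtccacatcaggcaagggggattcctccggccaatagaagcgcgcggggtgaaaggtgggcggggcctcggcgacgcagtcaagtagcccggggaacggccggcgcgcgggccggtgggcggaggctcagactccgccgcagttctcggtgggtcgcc
Hsp90b1: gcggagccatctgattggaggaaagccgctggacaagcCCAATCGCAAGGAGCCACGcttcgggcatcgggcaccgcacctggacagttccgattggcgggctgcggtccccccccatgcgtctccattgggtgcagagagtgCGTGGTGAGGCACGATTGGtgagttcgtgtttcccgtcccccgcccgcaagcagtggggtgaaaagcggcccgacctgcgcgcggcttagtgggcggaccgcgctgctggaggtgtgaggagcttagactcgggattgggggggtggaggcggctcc

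Growth factor pathways were represented by a few members. In the BMP and TGF-beta list, 3 of 26 were regulated, all lower, against 1.39% of all genes. The list's median was 0.20, and 0.10 without tamoxifen C35. Bmp8b, a ligand of the family, was at 1.11 to 2.24 CPM with tamoxifen (median 1.84), 11.5 to 20.6 CPM with E2 (median 14.9) and 1.19 to 1.94 CPM with vehicle (median 1.62), a log2 fold change of -3.07 ± 0.19 (SE, adjusted p = 4.59e-10), and its relative Bmp8a at 0.0787 to 0.553 CPM with tamoxifen (median 0.378), 2.66 to 3.35 CPM with E2 (median 3.11) and 0 to 0.153 CPM with vehicle (median 0.058), a log2 fold change of -3.19 ± 0.38 (SE, adjusted p = 8.10e-06). Nog, the secreted BMP antagonist noggin, was at 0.255 to 0.62 CPM with tamoxifen (median 0.377) and 0.709 to 2.08 CPM with E2 (median 1.45), a log2 fold change of -1.81 ± 0.35 (SE, adjusted p = 0.00222). In the Wnt list, 3 of 25 were regulated, against 1.65% of all genes. Wif1, a secreted Wnt inhibitor, was higher with tamoxifen, at 11.9 to 43.4 CPM with tamoxifen (median 17.3), 3.62 to 8.86 CPM with E2 (median 6.28) and 12.4 to 29.2 CPM with vehicle (median 21.9), a log2 fold change of 1.78 ± 0.28 (SE, adjusted p = 2.58e-04), whereas Sfrp4, another secreted Wnt antagonist (log2 fold change -1.17), and the agonist Rspo2 (-1.35) were lower. Igfbp2, which binds insulin-like growth factors, was the only regulated member of 13 in its list and was higher (0.26% of all genes were), at 1.21 to 3.09 CPM with tamoxifen (median 2.55), 0.32 to 0.851 CPM with E2 (median 0.631) and 0.723 to 2.504 CPM with vehicle (median 1.88), a log2 fold change of 1.93 ± 0.32 (SE, adjusted p = 3.97e-04).

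Matrix genes moved in both directions. Of 34 tested, 3 were regulated, against 1.65% of all genes, and the median was 0.18, with 0.11 without tamoxifen C35. Col1a1, the main fibrillar collagen chain, was at 605 to 913 CPM with tamoxifen (median 731), 332 to 402 CPM with E2 (median 359.6) and 285 to 583 CPM with vehicle (median 431), a log2 fold change of 1.05 ± 0.16 (SE, adjusted p = 2.50e-04), and Col18a1, a basement membrane collagen, at 209.6 to 489 CPM with tamoxifen (median 264), 123 to 172 CPM with E2 (median 134) and 145 to 258 CPM with vehicle (median 199), a log2 fold change of 1.02 ± 0.19 (SE, adjusted p = 0.00162). In both the tamoxifen range lay above that of E2. Mmp3, the metalloproteinase stromelysin-1, was lower, at 7.02 to 15.3 CPM with tamoxifen (median 11.1), 32.1 to 61.2 CPM with E2 (median 38.5) and 13.7 to 21.4 CPM with vehicle (median 14.2), a log2 fold change of -1.94 ± 0.19 (SE, adjusted p = 3.88e-07). Without tamoxifen C35, Col1a1 was no longer regulated (log2 fold change 0.99, adjusted p = 5.74e-04), and without E2 C6 or tamoxifen C35 (each left out singly), Col18a1 was no longer regulated (log2 fold change 0.82 to 0.98, adjusted p up to 0.00596). Tamoxifen C35 is the library with high smooth muscle markers, and the part of those cells in the collagen values was not tested. Col1a2 and Col3a1 had adjusted p-values under 0.05 within a 2-fold difference (log2 fold changes 0.84 and 0.68) and were chosen after their values were seen. Fmod, a collagen-binding proteoglycan (log2 fold change 1.35), which was higher, and Plod2, a collagen lysyl hydroxylase (-1.56), Spon1 (-1.37), Cilp (-1.34) and Gas6, a ligand of receptor kinases (-1.26), all lower, were chosen after their values were seen.

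Enzymes that handle drugs and steroids were among the genes with large differences. Of 27 tested drug metabolism genes, 3 were regulated and higher and 1 lower, against 0.26% and 1.39% of all genes, with a median of 0.12, which was -0.01 without tamoxifen C35. Cyp2e1, an ethanol-inducible cytochrome P450, was at 170.0 to 529.6 CPM with tamoxifen (median 299), 71.2 to 137 CPM with E2 (median 97.1) and 186 to 406 CPM with vehicle (median 293), a log2 fold change of 1.70 ± 0.27 (SE, adjusted p = 2.57e-04). Cyp2f2, another P450, was at 1.96 to 4.10 CPM with tamoxifen (median 2.77), 0.653 to 1.79 CPM with E2 (median 0.726) and 7.11 to 13.2 CPM with vehicle (median 11.1), a log2 fold change of 1.57 ± 0.31 (SE, adjusted p = 0.00247), so that vehicle lay above both compounds. Cyp2b10, also a P450, was lower, at 0.745 to 2.1 CPM with tamoxifen (median 1.53), 2.75 to 7.76 CPM with E2 (median 4.03) and 0.362 to 0.934 CPM with vehicle (median 0.702), a log2 fold change of -1.69 ± 0.33 (SE, adjusted p = 0.00241). In the steroid list, 2 of 16 were regulated, both lower, against 1.39% of all genes. Akr1c18, which inactivates progesterone, was at 2.06 to 8.61 CPM with tamoxifen (median 5.51), 11.4 to 23.6 CPM with E2 (median 17.8) and 3.89 to 12 CPM with vehicle (median 6.99), a log2 fold change of -1.75 ± 0.30 (SE, adjusted p = 5.62e-04), and Akr1c14, a 3-alpha-hydroxysteroid dehydrogenase, at 11.96 to 19.6 CPM with tamoxifen (median 15.3) and 23.4 to 59.1 CPM with E2 (median 39.4), a log2 fold change of -1.37 ± 0.17 (SE, adjusted p = 1.15e-05).

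Fat cell genes differed in part. The mean over the white adipocyte list was 7.41 to 7.86 log2 CPM with tamoxifen and 7.61 to 8.30 with E2. Of 15 white adipocyte markers, Lep and Cfd were regulated and lower, against 1.39% of all genes, with a median of -0.16 (-0.07 without E2 C9), and of 10 tested brown adipocyte markers, Dio2. Lep, the hormone leptin, was at 4.68 to 18.5 CPM with tamoxifen (median 8.68), 21.4 to 54.8 CPM with E2 (median 39.7) and 18.3 to 38.03 CPM with vehicle (median 26.4), a log2 fold change of -2.02 ± 0.27 (SE, adjusted p = 3.42e-05). Here tamoxifen lay below E2 without overlap, and its median was below that of vehicle. Dio2, which activates thyroid hormone, was at 50.4 to 107 CPM with tamoxifen (median 82.0), 103 to 392.3 CPM with E2 (median 216) and 59.4 to 114 CPM with vehicle (median 96.6), a log2 fold change of -1.65 ± 0.29 (SE, adjusted p = 9.08e-04). None of the 19 fatty acid and triglyceride synthesis genes was regulated (median -0.29). Adig, adipogenin of fat cells, was chosen after its values were seen (log2 fold change -1.48). With the mean of the white adipocyte list as a covariate, 178 genes were regulated and lower and 124 higher among all genes. Genes outside the complement list that lost the call there include Mrc1 (-0.79), Ccr2 (-0.81), Alox5 (-0.94), Alox5ap (-0.81) and Sfrp4 (-0.997), which were then within a 2-fold difference with an adjusted p under 0.05. Gp9, Cd2, Ccnb1, Birc5, Bub1, Mki67 and Tbata, whose calls also depended on single libraries, missed the adjusted p there. The part of fat around the artery in the other values was not tested.

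Among the genes higher with tamoxifen, Tgm3, a transglutaminase of epithelia, was at 12.8 to 33.3 CPM with tamoxifen (median 16.6), 2.82 to 4.42 CPM with E2 (median 3.64) and 0.983 to 3.06 CPM with vehicle (median 2.40), a log2 fold change of 2.41 ± 0.27 (SE, adjusted p = 3.16e-06). The tamoxifen libraries were above all E2 and all vehicle libraries. Aqp5, a water channel of glands, was at 1.81 to 4.90 CPM with tamoxifen (median 3.76), 0.336 to 0.887 CPM with E2 (median 0.556) and 0.0151 to 0.334 CPM with vehicle (median 0.14), a log2 fold change of 2.62 ± 0.61 (SE, adjusted p = 0.0107). Its tamoxifen range lay above both other ranges, and its log2 fold change against vehicle was 4.61 (adjusted p = 0.00279) with tamoxifen and 1.99 (adjusted p = 0.143) with E2. Impdh1, the rate-limiting enzyme of guanine nucleotide synthesis, was at 88.2 to 185 CPM with tamoxifen (median 134), 32.9 to 46.3 CPM with E2 (median 38.9) and 67.8 to 198 CPM with vehicle (median 107), a log2 fold change of 1.81 ± 0.21 (SE, adjusted p = 4.92e-06). Here E2 was the group that stood apart, below vehicle and tamoxifen, which overlapped. Slc27a2, a fatty acid transporter and acyl-CoA synthetase (log2 fold change 1.90), and Ces1f, a carboxylesterase (1.29), were chosen after their values were seen.

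Mb, myoglobin, was at 5.46 to 15.9 CPM with tamoxifen (median 11.4), 1.56 to 4.88 CPM with E2 (median 3.42) and 2.58 to 6.97 CPM with vehicle (median 4.68), a log2 fold change of 1.76 ± 0.29 (SE, adjusted p = 3.97e-04), and the antisense Gm49540 that overlaps its exons had a log2 fold change of 2.21, so the separate values are uncertain. None of 13 tested skeletal muscle markers was regulated. Their median was -1.06, with -2.15 without tamoxifen C35 and -0.48 without E2 C9. Gm37389, which overlaps Fabp9 and the myelin gene Pmp2 on the same strand, had a log2 fold change of 1.61 (adjusted p = 0.0458), and without E2 C6, C8, C9, C27 or C29 or tamoxifen C11, C12, C13, C33 or C35 (each left out singly), Gm37389 was no longer regulated (log2 fold change 1.44 to 1.74, adjusted p up to 0.112). Tg, thyroglobulin, had the largest fitted value of the 65 higher genes (log2 fold change 3.31 ± 0.90 SE, adjusted p = 0.0278), but it was at 10.7 CPM in tamoxifen C33 and 0.585 to 0.745 CPM in the other 5 tamoxifen libraries, against 0.0871 to 0.419 CPM with E2. Without E2 C6, C8 or C9 or tamoxifen C33 (each left out singly), Tg was no longer regulated (log2 fold change 1.495 to 3.34, adjusted p up to 0.236), with the lowest value without C33. It was also not regulated with DESeq2 or with the 12 libraries fitted alone. Tg and Tshr were the only regulated genes of 8 tested in the thyroid and parathyroid list, against 1.65% of all genes (median 0.20, and 0.03 without tamoxifen C35). Tshr, the thyrotropin receptor, was lower (log2 fold change -1.06), and without E2 C27 or tamoxifen C35 (each left out singly), Tshr was no longer regulated (log2 fold change -0.93 to -0.88, adjusted p up to 0.0201).

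Glucocorticoid and clock genes were higher in part. Among all 25033 genes, 0.26% were regulated and higher and 484 were higher at an adjusted p under 0.05. Of 16 glucocorticoid response genes, 1 was regulated, Zbtb16, and 6 had an adjusted p under 0.05, all higher, with a list median of 0.37. Zbtb16, a zinc finger repressor, was at 19.2 to 80.2 CPM with tamoxifen (median 47.9), 14.8 to 23.6 CPM with E2 (median 15.8) and 10.8 to 21.4 CPM with vehicle (median 14.3), a log2 fold change of 1.48 ± 0.35 (SE, adjusted p = 0.0121). The tamoxifen libraries were spread widely and the lowest of them overlapped E2. Of 17 clock genes, Dbp was regulated and 5 had an adjusted p under 0.05, all higher (median 0.42, and 0.28 without tamoxifen C35). Dbp was at 24.6 to 124 CPM with tamoxifen (median 48.9), 13.9 to 38.9 CPM with E2 (median 21.5) and 28.5 to 67.2 CPM with vehicle (median 45.3), a log2 fold change of 1.25 ± 0.36 (SE, adjusted p = 0.0369), with its highest value in tamoxifen C35 (124 CPM), and without E2 C9, C26, C27 or C29 or tamoxifen C12, C13 or C35 (each left out singly), Dbp was no longer regulated (log2 fold change 0.86 to 1.27, adjusted p up to 0.0967). The hours at which tissue was taken are not given in the sources used here, and their part in these values was not tested.

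**Figure D4:**
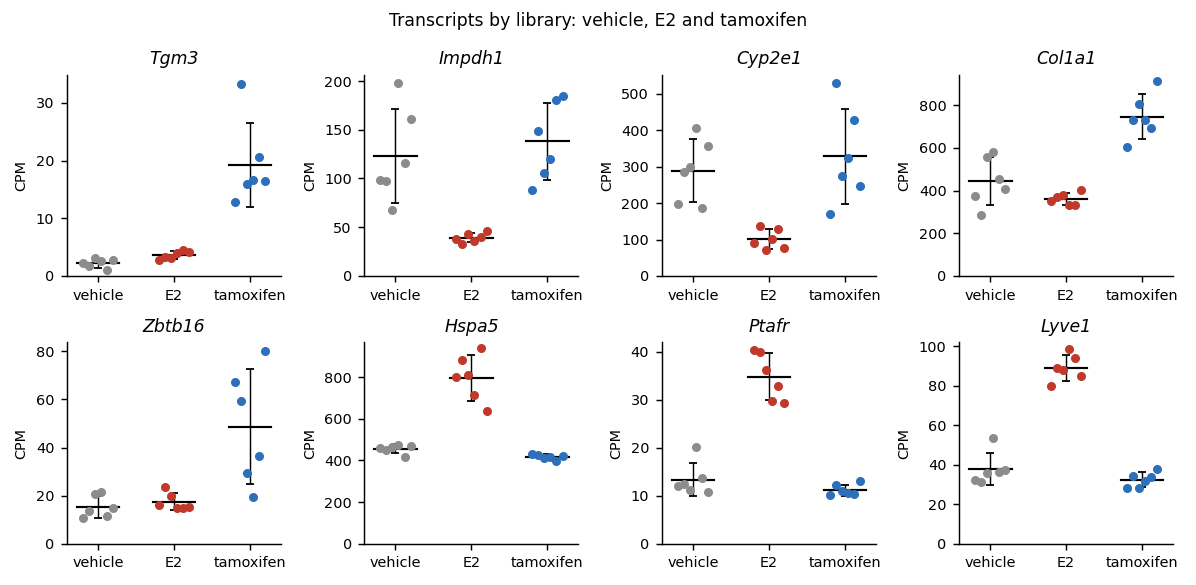
CPM of 8 genes in the 6 vehicle (grey), 6 E2 (red) and 6 tamoxifen (blue) libraries on linear axes from 0, with the mean and SD. Tamoxifen lies above E2 without overlap for Tgm3, Impdh1, Cyp2e1 and Col1a1 and below it for Hspa5, Ptafr and Lyve1, while for Zbtb16 the ranges overlap (19.2 to 80.2 against 14.8 to 23.6 CPM).

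Red cell genes were lower with tamoxifen. All 8 erythroid markers tested were regulated and lower, against 1.39% of all genes, with a median log2 fold change of -2.05. The list mean was 4.08 to 5.05 log2 CPM with tamoxifen, 5.76 to 7.25 with E2 and 4.73 to 7.35 with vehicle. Hbb-bs, a beta-globin, was at 858 to 2267 CPM with tamoxifen (median 1068), 2026 to 9171 CPM with E2 (median 5312) and 1865 to 13273 CPM with vehicle (median 4639), a log2 fold change of -2.07 ± 0.41 (SE, adjusted p = 0.00257). Tamoxifen C12 lay above E2 C6, the other tamoxifen libraries lay below all E2 libraries, and vehicle overlapped both groups. Slc4a1, the red cell anion exchanger (log2 fold change -2.67), did not overlap between tamoxifen and E2. Without E2 C9, 7 of the 8 were regulated, with a median of -2.105. Against vehicle, Hbb-bs had a log2 fold change of -2.098 (adjusted p = 0.013) with tamoxifen and -0.03 (adjusted p = 0.99) with E2. How much blood stayed in the vessels was not measured. The globin genes share transcript sequence in pairs, so their separate values are uncertain.

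Of 14 tested neutrophil markers, Padi4, which citrullinates histones, and Prtn3, the granule protease proteinase 3, were regulated and lower, against 1.39% of all genes. Mmp9, a matrix protease named after its values were seen, had an adjusted p under 0.05 (log2 fold change -0.74, adjusted p = 0.0486), and 13 of the 14 were below 0. The median was -1.25, and -0.63 without E2 C6. Padi4 was at 0.157 to 0.557 CPM with tamoxifen (median 0.212), 2.47 to 4.53 CPM with E2 (median 2.94) and 0.26 to 0.813 CPM with vehicle (median 0.498), a log2 fold change of -3.49 ± 0.32 (SE, adjusted p = 2.42e-07), and Prtn3 at 0.603 to 1.98 CPM with tamoxifen (median 1.35), 9.93 to 14.4 CPM with E2 (median 10.6) and 0.11 to 0.573 CPM with vehicle (median 0.498), a log2 fold change of -3.08 ± 0.29 (SE, adjusted p = 2.90e-07). Neither overlapped between tamoxifen and E2. Other genes of the list did not pass the test, such as S100a8 (log2 fold change -1.48, adjusted p = 0.151) and Elane (-0.29, adjusted p = 0.666). Gp9, a platelet glycoprotein, was the only regulated member of 10 tested platelet markers (log2 fold change -1.41, adjusted p = 0.0437), against 1.39% of all genes lower. Without E2 C6, C8, C9 or C27 or tamoxifen C11, C13, C32 or C33 (each left out singly), Gp9 was no longer regulated (log2 fold change -1.46 to -1.21, adjusted p up to 0.0981). Pf4, platelet factor 4, also had an adjusted p under 0.05 (log2 fold change -0.94, adjusted p = 0.00213).

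T cell and cell cycle genes depended on E2 C9. In the T cell list, Cd2 was the only one of 17 that was regulated (log2 fold change -1.38 ± 0.33 SE, adjusted p = 0.0132), against 1.39% of all genes lower. Without E2 C9, Cd2 was no longer regulated (log2 fold change -1.04, adjusted p = 0.0529), and the list's median of -1.72 became 0.22 without C9. Of 32 cell cycle genes, 4 were regulated and lower (1.39% of all genes were), Ccnb1, Birc5, Bub1 and Mki67, and without C9 none was. Without E2 C9 or tamoxifen C11, C12, C13 or C33 (each left out singly), Birc5 was no longer regulated (log2 fold change -0.99 to -0.60, adjusted p up to 0.0467), without E2 C9 or tamoxifen C13 (each left out singly), Bub1 was no longer regulated (log2 fold change -1.70 to -1.14, adjusted p up to 0.118), and without E2 C6, C8 or C9 or tamoxifen C11, C12, C13, C32 or C33 (each left out singly), Mki67 was no longer regulated (log2 fold change -1.41 to -0.54, adjusted p up to 0.296). Mki67, a marker of proliferating cells, was at 37.4 CPM in C9 and 4.195 to 9.475 CPM in the other E2 libraries, against 2.70 to 6.24 CPM with tamoxifen. The median of the cell cycle list was -0.45 with C9 and -0.24 without it. In the same library Rag1, Dntt and Tbata, genes of the thymus that were chosen after their values were seen, were at 205, 65.5 and 28.9 CPM, and no tamoxifen library exceeded 9.09, 3.28 and 0.413 CPM. Of 7 tested members of a thymus list drawn up after this was seen, Tbata (log2 fold change -4.30) and Pax1 were regulated and lower (1.39% of all genes were), neither was without C9, and the list median went from -3.01 to 0.41. Tbata was also not regulated with DESeq2 or without tamoxifen C11, C12 or C32 (each left out singly). What part of these values comes from tissue beside the artery was not tested.

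**Figure D5:**
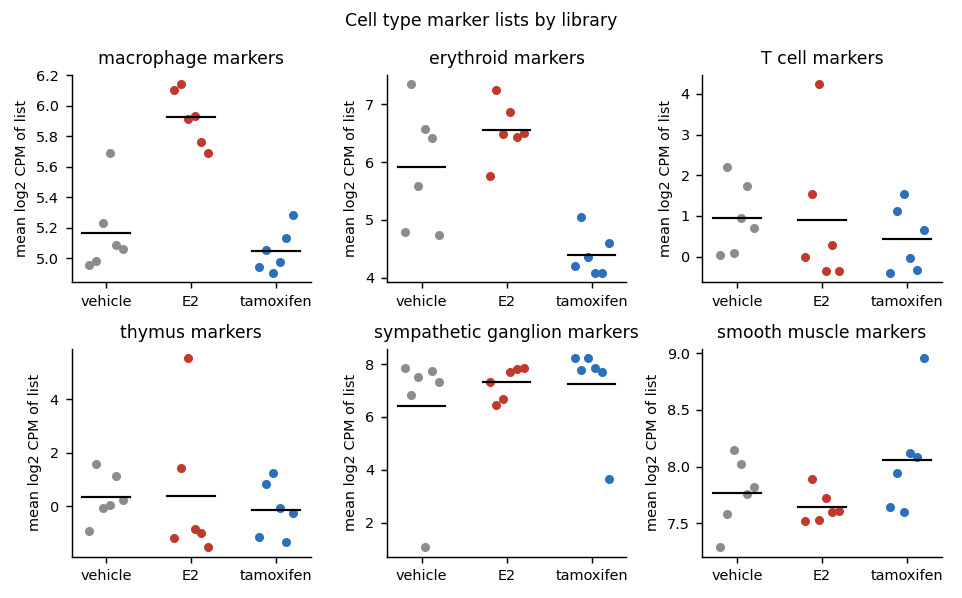
Mean log2 CPM of 6 marker lists in each vehicle (grey), E2 (red) and tamoxifen (blue) library, with a bar at the group mean. Macrophage and erythroid means with tamoxifen lie below all E2 means, whereas single libraries set apart E2 C9 (thymus, T cell) and tamoxifen C35 (ganglion, smooth muscle).

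Among markers of the wall's own cell types, 1 of 14 adventitial fibroblast genes was regulated, Col1a1, which was higher (0.26% of all genes were), and 5 had an adjusted p under 0.05, against 6.44% of all genes. These were Col1a1 and Col1a2, both higher, while Cd34 (-0.78), Ly6a (-0.72) and Dpt (-0.72) were lower within a 2-fold difference, and the median was -0.31. None of 15 smooth muscle markers was regulated, although all 15 had a log2 fold change above 0 (median 0.43) and Myh11 and Myocd had adjusted p-values of 0.0396 and 0.00918. That of Myh11 was above 0.05 without E2 C6, C8, C9, C26 or C27 or tamoxifen C32, C33 or C35 (each left out singly), at most 0.0919, and its log2 fold change went from 0.78 to 0.46 without C35. Without tamoxifen C35 and vehicle C5 the median was 0.18. Of 16 endothelial markers none was regulated (median 0.06, and -0.07 without tamoxifen C35), and Cdh5 and Pecam1 had log2 fold changes of 0.43 and 0.09 (adjusted p = 0.159 and adjusted p = 0.816), the second of which changed sign without C35. No member was regulated in the lists for angiogenesis (30 tested), B cells (14), plasma cells (7), sympathetic ganglion (26) and Schwann and satellite glia (12). All 26 ganglion markers were above 0 (median 0.31), and the median was 0.17 without E2 C8 and 0.57 without tamoxifen C35, the library with low ganglion markers. Above 0 were also all 12 Schwann and satellite glia markers (median 0.69), 3 of which had an adjusted p under 0.05, against 6.44% of all genes in either direction. Also without a regulated member were the lists for cholesterol synthesis and uptake (24), cholesterol efflux (12), lysosome (23), immediate early genes (21) and antioxidant and oxidase enzymes (17). In the last of these, 4 genes had an adjusted p under 0.05, all lower, against 6.44% of all genes in either direction. Of its 17 members, 12 were below 0 and 5 above (median -0.03).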

How the data were processed

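Messenger RNA of mouse carotid arteries was sequenced as read pairs from stranded libraries. The authors deposited, per library, estimated counts of reads per gene for 55421 genes with no normalization, of which 55240 matched names in the GENCODE M21 annotation. The submitters' processing notes name bcl2fastq 2.17, Trim Galore, Bowtie2, featureCounts and the mm10/GRCm38 build. The strand and multi-mapping settings of the counting are not given in the sources used here. Between 9.00% and 9.80% of the values in the 12 libraries carry decimals, and low values were odd 0.792 times as often as even, for which the sources used here give no reason. Near-identical, overlapping and antisense genes are reported as uncertain.

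Values were rounded to whole numbers, genes with low counts were removed with filterByExpr, and TMM factors were taken over 25033 genes. All 24 libraries were fitted by group in 1 model with edgeR 4.0.16 (quasi-likelihood test, R 4.3.3), and tamoxifen minus E2 was tested, with Benjamini-Hochberg adjustment over all genes. Regulated means an adjusted p below 0.05 and an absolute log2 fold change above 1. The script was tested on simulated data. E2 and tamoxifen were each set beside the same 6 vehicle libraries. CPM used the TMM-scaled totals, which ranged from 42110445 to 57686035 before scaling in the 12 libraries, and precision rests on 6 mice per group.

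The named genes were the 10 highest and 10 lowest regulated genes with a mean of at least 1 CPM and no overlap between the groups, certain receptor, target and wall marker genes, and up to 6 regulated members of each list by adjusted p. The lists and members were chosen with earlier results of these data known, and genes or lists added after their values were seen are marked as such. Certain single-gene results are not reported here. Lists are described by counts and medians, without a set test. Promoter windows and motif matches came from RefSeq, assembly GRCm38.p6. Alternatives included DESeq2 1.42.0, other scalings and filters, marker covariates and omitted libraries.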

Additional observations from a re-analysis of the deposited data

Results flagged for a closer look

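In each group of 6 libraries, the highest or lowest value was compared with its nearest neighbour by Dixon's ratio at its 95% critical value. Of 238 groups tested over named genes and list means, 23 held a value set apart. Chance sets apart about 1 in 20 groups, and genes of 1 cell type are not independent of each other. Tamoxifen C35 holds 11 of them and E2 C9 holds 6.

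Tamoxifen C35 was the highest tamoxifen library for Acta2 (3236.0 CPM, others 1212 to 1706), Myh11 (2599.2 CPM, others 823 to 1296), Pecam1 (517.1 CPM, others 219 to 317) and Col18a1 (489.4 CPM, others 209.6 to 289). It was also highest for Wif1 (43.37 CPM), Sfrp4 (109.7 CPM) and Dbp (123.6 CPM), and for the mean of the extracellular matrix list (8.047 log2 CPM). The same library was lowest for the ganglion list (3.657 log2 CPM, others 7.70 to 8.22), the cholesterol synthesis list (4.878, others 5.91 to 6.20) and the vasoactive list (3.875). A low ganglion level goes with high smooth muscle levels in this library, and the makeup of the dissected tissue was not measured.

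E2 C9 was the highest E2 library for Mki67 (37.36 CPM), Birc5 (6.183 CPM), Ccnb1 (3.222 CPM), Bub1 (2.373 CPM), Cd2 (8.382 CPM) and the mean of the cell cycle list (2.806 log2 CPM, others 1.45 to 1.90).

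Tamoxifen C33 held 10.66 CPM of Tg against 0.585 to 0.745 CPM in the others. Tamoxifen C12 was highest for Cfd (1050.0 CPM) and Slc4a1 (1.026 CPM). Tamoxifen C32 was highest for Gm12248 (0.149 CPM). Tamoxifen C13 was lowest for the immediate early list (4.634 log2 CPM), and E2 C29 was highest for the steroid hormone metabolism list (3.544 log2 CPM).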

How the results depend on the processing

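The 413 regulated genes became 1612 (484 higher and 1128 lower) without the fold requirement, 264 (27 higher) at an adjusted p below 0.01, and 257 (41 higher and 216 lower) when at least 10 counts were asked of every library. Mouse numbers fell into a lower and a higher series. The lower one alone (3 against 3) gave 465, of which 243 were among the 413, and the higher one alone (3 against 3) gave 94 (19 higher and 75 lower), of which 81 were. Whether the tamoxifen to E2 difference itself differed between these series was tested with an interaction term in edgeR. The term had an adjusted p below 0.05 for 0 of 25160 genes and an unadjusted p below 0.05 for 6541. The unadjusted count exceeds the share of 0.05 expected by chance. With 3 libraries per group and series, 0 adjusted calls do not show that the series agree, and no other tool was run on this term. With the white adipocyte list mean as a covariate there were 124 higher and 178 lower genes. In the other settings the count of regulated genes stayed within 1.5 times of 413, such as 466 with DESeq2, 334 with the 12 libraries fitted alone, 404 with RLE factors and 402 with the number series as a covariate. Named genes that lost the call with the number series as a covariate include Mrc1, Alox5ap, Birc5, Mki67 and Tbata. Omitting single libraries gave 314 to 501 regulated genes, 51 to 79 of them higher and 257 to 422 lower, the fewest in all without E2 C9 and the fewest higher ones without tamoxifen C35. The count at an adjusted p below 0.05 alone moved more, from 1612 to 3360 with the ganglion list mean as a covariate, 3335 without tamoxifen C35 and vehicle C5, 1008 without E2 C8, 1028 without E2 C9 and 115 in the higher number series alone. In every setting the genes regulated there and among the 413 kept their direction. A gene that changes sign and loses its call leaves this count, as Tbata did without E2 C9 (log2 fold change 0.470). The analyses without the 3 libraries that stood apart, without genes with an exon overlap (317) and without the Mup family (395) were added after the data were seen. No paired analysis was possible because the groups share no mouse numbers.

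Named genes that changed sign were not regulated, apart from Tbata, and the cause was not tested. In the higher number series alone the log2 fold change was 0.026 for Esr1, -0.270 for Gper1, 2.597 for Rag1, 1.457 for Dntt and 0.762 for Tbata. With the adipocyte covariate it was 0.052 for Esr1, -0.093 for Gper1, 0.429 for Rag1 and 0.061 for Dntt. Pecam1 was at -0.324 in the lower number series alone, -0.115 without tamoxifen C35 and vehicle C5 and -0.145 without E2 C9 as well, where Rag1, Dntt and Tbata were at 0.985, 0.947 and 0.611. Over single omissions the ranges were -0.115 to 0.171 for Pecam1, -4.396 to 0.751 for Rag1, -4.116 to 0.808 for Dntt and -4.561 to 0.470 for Tbata, with positive values for the last 3 without E2 C9.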

Other observations

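The genes given here were chosen after their values were seen and lie outside the groups described so far. Dhrs9, a retinol and steroid dehydrogenase, was at 1.62 to 2.81 CPM with tamoxifen (median 1.88), 8.99 to 18.5 CPM with E2 (median 10.6) and 1.16 to 4.79 CPM with vehicle (median 2.302), a log2 fold change of -2.56 ± 0.29 (SE, adjusted p = 3.09e-06). Its tamoxifen libraries lay below all E2 libraries. Lif, a cytokine of the interleukin-6 family, was at 1.69 to 2.98 CPM with tamoxifen (median 2.03), 5.10 to 7.74 CPM with E2 (median 7.10) and 1.87 to 3.19 CPM with vehicle (median 2.16), a log2 fold change of -1.59 ± 0.21 (SE, adjusted p = 3.48e-05). Heph, a ferroxidase that moves iron out of cells, was at 6.65 to 13.9 CPM with tamoxifen (median 8.73), 24.7 to 57.3 CPM with E2 (median 33.8) and 5.63 to 10.1 CPM with vehicle (median 8.19), a log2 fold change of -1.93 ± 0.18 (SE, adjusted p = 3.21e-07), and its exons overlap those of Hsf3 on the other strand. Hp, haptoglobin, which binds free hemoglobin, was at 162 to 290.4 CPM with tamoxifen (median 222), 501 to 865 CPM with E2 (median 576) and 157 to 297 CPM with vehicle (median 210.1), a log2 fold change of -1.49 ± 0.20 (SE, adjusted p = 3.75e-05). Ghr, the growth hormone receptor, was at 112 to 165 CPM with tamoxifen (median 149) and 246 to 394 CPM with E2 (median 302), a log2 fold change of -1.05 ± 0.13 (SE, adjusted p = 1.19e-05). Without E2 C9 or tamoxifen C13 (each left out singly), Ghr was no longer regulated (log2 fold change -0.99 to -0.97, adjusted p up to 5.13e-05), and with the white adipocyte list mean as a covariate it was at -0.85. Tcap, a sarcomere protein of striated muscle, was higher with tamoxifen (log2 fold change 2.25 ± 0.44 SE, adjusted p = 0.00227), with 149 CPM in tamoxifen C35 against a tamoxifen median of 28.6 and an E2 median of 10.2 CPM. Without tamoxifen C35 its log2 fold change was 1.40 (adjusted p = 0.00279). No explanation of these differences was tested.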
